A study of Mus musculus with 6 samples.

Results

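The genes described here are the axon guidance ligands and receptors, measured by RNA sequencing in 6 mouse samples, called cells below. They were taken by gene name from the deposited table: the semaphorin, plexin, neuropilin, ephrin, Eph receptor, slit, roundabout and netrin families, with the netrin receptors of the Unc5 and Dcc type. The rule found 74 of 45038 rows. Of these, 69 belong to the guidance families and 5 matched by name only. The labels name 3 mice, 1157, 1168 and PDGF1. Every mouse contributed 1 circulating tumor cell (CTC), which is found in the bloodstream, and 1 sample labelled as a tumor cell, whose title carries the letters GBM. Only the CTC labels read single-cell. Whether each tumor sample holds 1 cell is not stated there, and a difference in cell number cannot be told apart from the kind of cell. Genotype, strain, age and treatment of the mice are not given in the sources used here, and RNA from every cell went through 3 rounds of linear amplification before library construction, per the labels' protocols. With 1 sample per mouse and kind, the mouse is the replicate, 3 CTCs against 3 tumor cells.

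Guidance ligands tell growing axons and migrating cells where to go. Semaphorins act through plexins, with neuropilins as co-receptors of the secreted class 3 members. Ephrins are bound to the membrane and meet Eph receptor tyrosine kinases on a neighbouring cell, with signalling in both directions. Slits repel through roundabout receptors, and netrins attract through Dcc or repel through Unc5 receptors. In the adult brain the same families act in vessels, immune cells and glial precursors, and they have been studied in glioma as regulators of invasion.

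The libraries differed widely, and this bears on every value below. FPKM divides a gene's fragments by its transcript length and by the size of the library, so it compares levels per length. Both cells of mouse 1168 had broad libraries, with 9702 and 11239 of 44804 usable rows at 1 FPKM or more in the CTC and the tumor cell, while the other 4 cells had 1486 to 4078. Read counts were not analysed here, so the depth of each cell is unknown. Receptor genes of the nose (olfactory and vomeronasal), of no known role in these cells, served to gauge background. Their 99th percentile, called the receptor percentile here, lay between 0.128 FPKM in the CTC of mouse 1168 and 7.14 FPKM in the tumor cell of mouse PDGF1. Oligodendrocyte progenitor genes, the markers nearest to the glioma lineage, reached 1 FPKM for 9 of 10 genes in each cell of mouse 1168. In mouse 1157 the CTC had 4 of them and the tumor cell 3, and neither cell of mouse PDGF1 had any, so these markers give no support to the labels there.

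Most guidance genes were low in most cells. Of the 69 guidance genes, 45 were at 1 FPKM or more in at least 1 cell and 14 reached 5 FPKM. The 14 were Sema3a, Sema3d, Sema4b, Sema4f and Sema6a among semaphorins, Plxna2, Plxnb1, Plxnb2 and Plxnc1 among plexins, the Eph receptors Epha2 and Ephb3, the roundabout receptor Robo3, and the netrins Ntn1 and Ntn4. No neuropilin, ephrin, slit or netrin receptor reached 5 FPKM. The other 24 stayed under 1 FPKM in all 6 cells, with 0.948 as the highest value. They included Dcc, Unc5d, Ntn3, Ntn5, Slit3, the vessel receptor Robo4, Plxna3, Plxna4 and Sema7a, besides 7 Eph receptors, 3 ephrins and 5 other semaphorins.

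**Figure D1:**
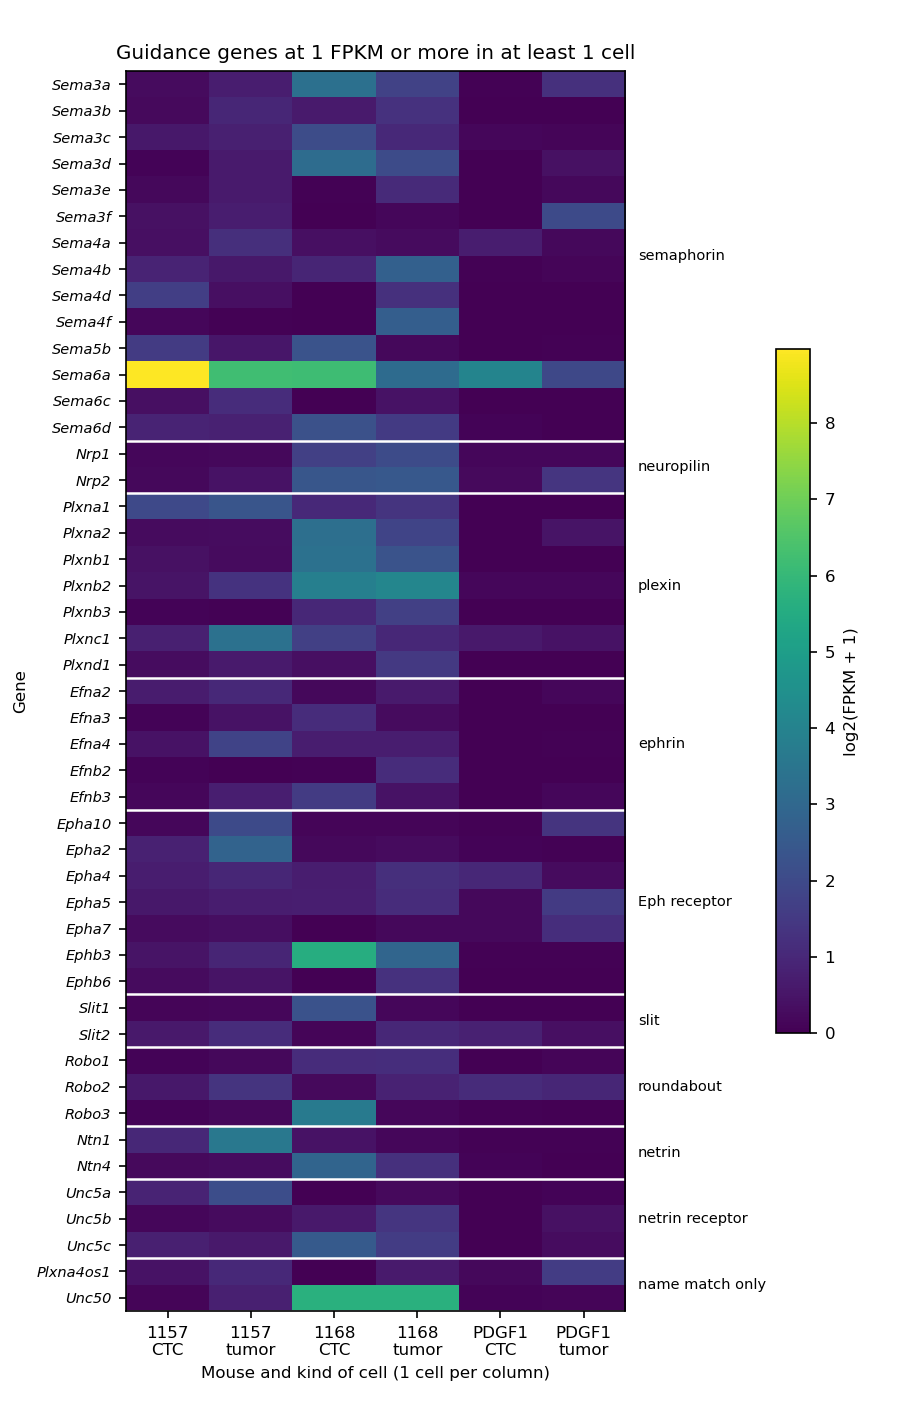
Level of the 47 rows at 1 FPKM or more in at least 1 cell, as log2(FPKM + 1) by colour, with genes grouped by family and 1 cell per column. Sema6a is the only row at 1 FPKM or more in every column, while 33 of the 47 rows reached 1 FPKM in 1 mouse only. How many of all rows in the table did so was not counted.

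How many guidance genes each kind of cell held was compared first. At 1 FPKM or more the CTC of mouse 1157 held 4 of the 74 rows and its tumor cell 15. Mouse 1168 had 23 and 30, and mouse PDGF1 had 3 and 8. The tumor cell had the larger number in 3 of 3 mice, while the groups overlapped, since the CTC of mouse 1168 lay above 2 of the 3 tumor cells. Over all rows the share at 1 FPKM or more was larger in the tumor cell of each mouse too, at 6.41% and 9.10% (mouse 1157), 21.7% and 25.1% (mouse 1168) and 3.32% and 6.75% (mouse PDGF1). CTCs had a mean of 10 ± 11.3 (SD, n = 3) rows and tumor cells one of 17.7 ± 11.2 (SD, n = 3). The difference was smaller than the spread between mice (exact permutation test, two-sided, p = 0.5, where the design allows no p under 0.1). Subtracted mouse by mouse, the differences were -11, -7 and -5, with a mean of -7.67 ± 3.06 (SD, n = 3 pairs; exact paired test, p = 0.25, the smallest that 3 pairs allow). A single cell left out breaks its pair, and the difference between the group means then varied. It was -14.2 without the CTC of mouse 1168, -12.5 without the tumor cell of mouse PDGF1, -4.67 without the CTC of mouse 1157, -4.17 without the CTC of mouse PDGF1 and -1.5 without the tumor cell of mouse 1168. After rescaling each cell to the same total of named genes it was -18.3. The direction depended on the measure of detection. Counted above the receptor percentile of the same cell, the numbers for CTC and tumor cell were 9 and 8 (mouse 1157), 43 and 22 (mouse 1168) and 1 and 0 (mouse PDGF1), a mean difference of 7.67 in the other direction (exact permutation test, p = 0.6). All rows went the same way, with 8.10% and 4.43% above that percentile (mouse 1157), 29.1% and 23.2% (mouse 1168) and 1.74% and 1.17% (mouse PDGF1). The 43 in the CTC of mouse 1168 made 58.1% of the 74 rows. In the tumor cell of mouse PDGF1 all 8 guidance rows at 1 FPKM or more lay under it, and in that cell none can be told from background.

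**Figure D2:**
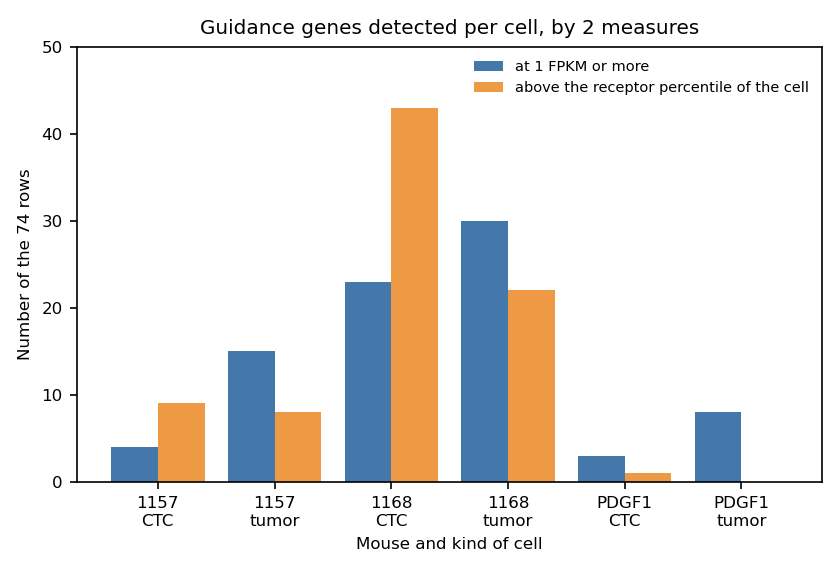
Number of the 74 rows detected in each cell, at 1 FPKM or more (blue) and above the 99th percentile of olfactory and vomeronasal receptor genes in the same cell (orange). The blue bar is higher in the tumor cell of each mouse and the orange bar higher in the CTC.

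Single guidance genes were compared next, over the 3 CTCs and the 3 tumor cells. Only 6 of the 74 rows were at 1 FPKM or more in at least 3 cells and could enter the test: Sema6a, Sema3a, Nrp2, Plxna1, Plxnb2 and Plxnc1. None passed. By limma on log2(FPKM + 1), 0 of 4165 rows passed an adjusted p of 0.05, or 0% of all rows tested, and 7 had an unadjusted p under 0.05, none of them a guidance gene. With the mouse as a block 1 of 4165 rows passed, 0.024%, and it was no guidance gene. None of the 6 had all 3 CTCs above or all 3 below the tumor cells, where 0.264% and 1.3% of the rows tested did. Over all 74 rows, none had all CTCs above and 5 had all CTCs below the tumor cells: Epha3, Efna5, Sema4c and Sema5a, each under 1 FPKM in every cell, and the antisense gene Plxna4os1. Among 32679 rows above 0 in some cell the shares were 0.474% above and 2.88% below. The log2 differences, CTC minus tumor cell, were -0.49 for Nrp2 (SE 1.08), -0.57 for Plxnc1 (SE 1.22), -0.23 for Plxna1 (SE 1.01) and -0.36 for Plxnb2 (SE 1.63), each smaller than its error (limma, adjusted p = 0.9999).

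Sema6a, a transmembrane semaphorin that binds the plexins A2 and A4, was the guidance gene of highest level in 4 of 6 cells and the only one of the 74 rows at 1 FPKM or more in all 6. In mouse 1157 its level was 501 FPKM (CTC) and 72.7 FPKM (tumor cell). In mouse 1168 it was 71.2 and 7.77, and in mouse PDGF1 15.5 and 2.89. The CTC was thus higher in 3 of 3 mice, while the groups overlapped, because the tumor cell of mouse 1157 lay above the CTCs of mice 1168 and PDGF1. On the scale log2(FPKM + 1) the differences were 2.77, 3.04 and 2.08, with a mean of 2.63 ± 0.49 (SD, n = 3 mice; two-sided exact paired test, p = 0.25, the smallest that 3 pairs allow). A single cell left out breaks its pair. The difference between group means then ran from 1.34, without the CTC of mouse 1157, to 3.85, without the tumor cell of that mouse. It was 1.73 without the tumor cell of mouse PDGF1, and 1.53 after quantile normalization of all cells. With both cells of a mouse left out, which keeps the other pairs whole, it was 2.56 (mouse 1157), 2.43 (mouse 1168) and 2.90 (mouse PDGF1). By limma the difference of 2.63 had an SE of 4.43 and an adjusted p = 0.9999, and with the mouse as a block an SE of 1.73 and an adjusted p = 0.966. Sema6a was 1 of 14 rows among 4165, or 0.336%, with a CTC value higher by at least 1 in each mouse. None of the 74 rows was lower by at least 1 in each mouse, where 30 rows, or 0.72%, were.

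The size and, in mouse 1157, the direction of the Sema6a difference depended on scaling. When each cell was rescaled so that its named genes summed to the same total, the differences became -0.27 (mouse 1157), 2.42 (mouse 1168) and 3.53 (mouse PDGF1), with a mean of 1.9, and Sema6a was not among the 17 rows then higher in all 3 mice. The median of all rows tested was -0.06 over 4165 rows before the rescaling. It was -0.74 after it, over the 9541 rows that then passed the filter. Within mouse 1157 the rescaled value of -0.27 stood beside a median of -2.03 over all rows measured there. Rescaling multiplied that tumor cell by 13.8 and its CTC by 1.66, and the rows measured rose from 5961 to 19227. That median thus depends on the scaling and the filter, and it is no gauge of Sema6a.

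In both cells of mouse 1157 and the CTC of mouse PDGF1, Sema6a stood among the highest rows. Among 44804 rows it had rank 67 (CTC) and 37 (tumor cell) for mouse 1157, 137 and 1303 for mouse PDGF1, and 1145 and 4724 for mouse 1168. It made 95.2% of the summed FPKM of the 74 rows in the CTC of mouse 1157 and 70.8% in the CTC of mouse PDGF1, but 25.5% in the CTC of mouse 1168. Its level was above the receptor percentile in 5 of 6 cells, as for 124 of all rows, and at 0.405 of that percentile in the tumor cell of mouse PDGF1. Rows at 1 FPKM or more in all 6 cells were few, 173 of 44804 or 0.386%, of which 157 were named protein-coding genes and 0 were receptor genes. The gene lies on chromosome 18 from 47235598 to 47368870 on the minus strand (GRCm38), and no annotated exon of another gene overlaps its exons. Its 3′ end faces that of Commd10 on the plus strand, with 1313 bases between them. Commd10 had 0.242 FPKM (CTC) and 0.510 FPKM (tumor cell) in mouse 1157 and 8.38 and 6.19 in mouse 1168, and both cells of mouse PDGF1 list it at 0. Whether reads of either gene were assigned to the other was not tested.

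**Figure D3:**
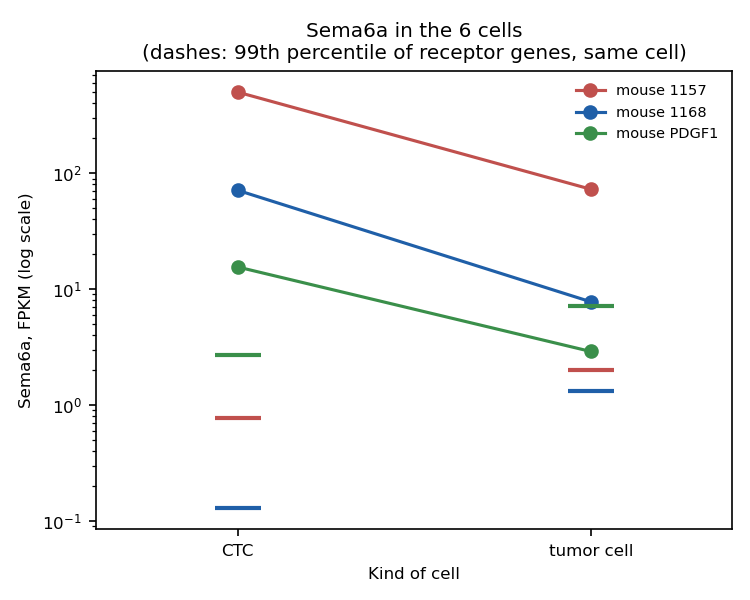
Sema6a in FPKM on a log axis, with a line joining the CTC and the tumor cell of each mouse and a dash of the same colour for the 99th percentile of olfactory and vomeronasal receptor genes in that cell. Each line falls from CTC to tumor cell, and the tumor cell of mouse PDGF1, at 2.89 FPKM, lies under its own dash.

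The CTC was then set beside the tumor cell of the same mouse. This compares 1 library with 1 other, so it has no replicate check and no test. A gene was taken as measured in a mouse when at least 1 of its 2 cells was at 1 FPKM or more, and as higher or lower when log2(FPKM + 1) differed by at least 1. In mouse 1168, 35 of the 74 rows were measured, and 12 were higher and 6 lower in the CTC, 34.3% and 17.1%. Over all 12396 rows measured in that mouse, 22.7% were higher and 24.9% lower. The median difference was -0.04 for the guidance rows and 0.04 for all rows. More rows were thus higher than lower in the CTC, although the median of the whole group lay at that of all genes.

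Of the 5 secreted class 3 semaphorins measured in mouse 1168, 3 were higher in the CTC, and Sema3b (0.579 and 1.42 FPKM) and Sema3e (0.0440 and 1.09) differed by less than 1. Sema3a, a repellent that signals through neuropilin 1 and A plexins, had 8.98 FPKM (CTC) and 2.38 FPKM (tumor cell) in mouse 1168. Mouse 1157 had 0.204 and 0.656, and mouse PDGF1 0.0478 and 1.4. Only in mouse 1168 was the CTC the higher cell, so the groups overlapped. Sema3d was at 8.05 and 3.12 in mouse 1168 and at most 0.564 in the other 4 cells. Sema3c, a ligand of both neuropilins, was at 3.29 and 1.02 in mouse 1168. The differences of Sema3a, Sema3d and Sema3c in mouse 1168 were 1.56, 1.13 and 1.08 on the log2 scale. Rescaled to the named-gene total, those of Sema3a and Sema3d were 0.91 and 0.58, under the size used to call a gene higher.

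Of the other semaphorins that differed in mouse 1168, Sema5b was higher and 3 class 4 members were lower in the CTC. Sema5b, a transmembrane semaphorin, had 3.95 FPKM (CTC) and 0.138 FPKM (tumor cell), and in mouse 1157 it was at 1.93 and 0.447, so it was higher by at least 1 in the CTC of 2 mice. In mouse PDGF1 it was at 0.00558 and 0.0410. In mouse 1168 Sema4f was listed at 0 for the CTC and at 5.42 for the tumor cell, Sema4b was at 0.887 and 5.75, and Sema4d, a ligand of plexin B1 found on leukocytes, was listed at 0 and at 1.36. In mouse 1157 Sema4d was the reverse, at 2.19 for the CTC and 0.279 for the tumor cell, a difference of 1.32. Sema4f and Sema4b were at most 0.841 in the other 4 cells.

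Neuropilins and plexins, the receptors of semaphorins, mostly reached 1 FPKM in either cell of mouse 1168. Nrp1 had 2.26 FPKM (CTC) and 3.12 FPKM (tumor cell), and Nrp2 at 4.32 and 4.53. Plxnb2, which encodes a receptor of class 4 semaphorins, had the highest level of any plexin, 13.6 FPKM (CTC) and 16.2 FPKM (tumor cell) for mouse 1168. Mouse 1157 had 0.386 and 1.5, and mouse PDGF1 0.128 and 0.112. Mouse 1168 was high in both kinds of cell, and its 2 values lay within 1 on the log2 scale. Plxna2 was at 8.68 and 2.57 in mouse 1168 and at most 0.373 elsewhere, and Plxnb1, the receptor of Sema4d, was at 9.18 and 3.92 and at most 0.321 elsewhere. Their differences of 1.44 and 1.05 became 0.82 and 0.52 after rescaling. Plxnd1, a vessel receptor of Sema3e, was lower in the CTC, at 0.277 against 1.79.

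Ephb3, a receptor tyrosine kinase for B ephrins, was the guidance gene of highest level after Sema6a in the CTC of mouse 1168. It had 47.2 FPKM in that CTC and 6.53 FPKM in its tumor cell. Mouse 1157 had 0.378 and 0.881, and mouse PDGF1 0.0287 and 0.0450. The difference in mouse 1168 was 2.68 on the log2 scale, and the other 4 cells were all under 1 FPKM. Efnb3, a ligand of EphB receptors, had 1.98 FPKM (CTC) and 0.344 FPKM (tumor cell) in mouse 1168. Efnb2, another B ephrin and a marker of arterial endothelium, was at 0.0305 and 1.18, and Ephb6, whose kinase domain is inactive, was listed at 0 and at 1.45. Of the 8 ephrins, 2 reached 1 FPKM in that CTC and 1 in its tumor cell.

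Robo3, a divergent member of the roundabout family that is best known from axons crossing the midline, had the largest difference in mouse 1168 on log2(FPKM + 1). After rescaling, Sema6a at 2.42 lay above Robo3 at 2.2, and with a pseudocount of 0.1 Sema4f at -5.79 exceeded Robo3 at 5.74 in size. Robo3 had 11.8 FPKM (CTC) and 0.122 FPKM (tumor cell). Mouse 1157 had 0.0722 and 0.141, and mouse PDGF1 0.0457 and a value listed at 0. A single cell thus reached 1 FPKM, with a difference of 3.51 on the log2 scale. The ligand Slit1 had the same pattern, at 3.85 and 0.110 in mouse 1168 and at most 0.117 elsewhere. Slit2 was at 0.0819 in that CTC and 1.02 in the tumor cell. Robo1 did not differ by that measure, at 1.19 and 1.25.

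Among netrins and their receptors, Ntn4, a netrin of basement membranes, had 6.49 FPKM (CTC) and 1.35 FPKM (tumor cell) in mouse 1168 and at most 0.224 elsewhere. Unc5c, a receptor through which netrins repel, was at 4.89 and 2.0, a difference of 0.97. Unc5b was at 0.517 and 1.63. Ntn4 had a difference of 1.67, which became 0.95 after rescaling. No cell had Dcc above 0.182.

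**Figure D4:**
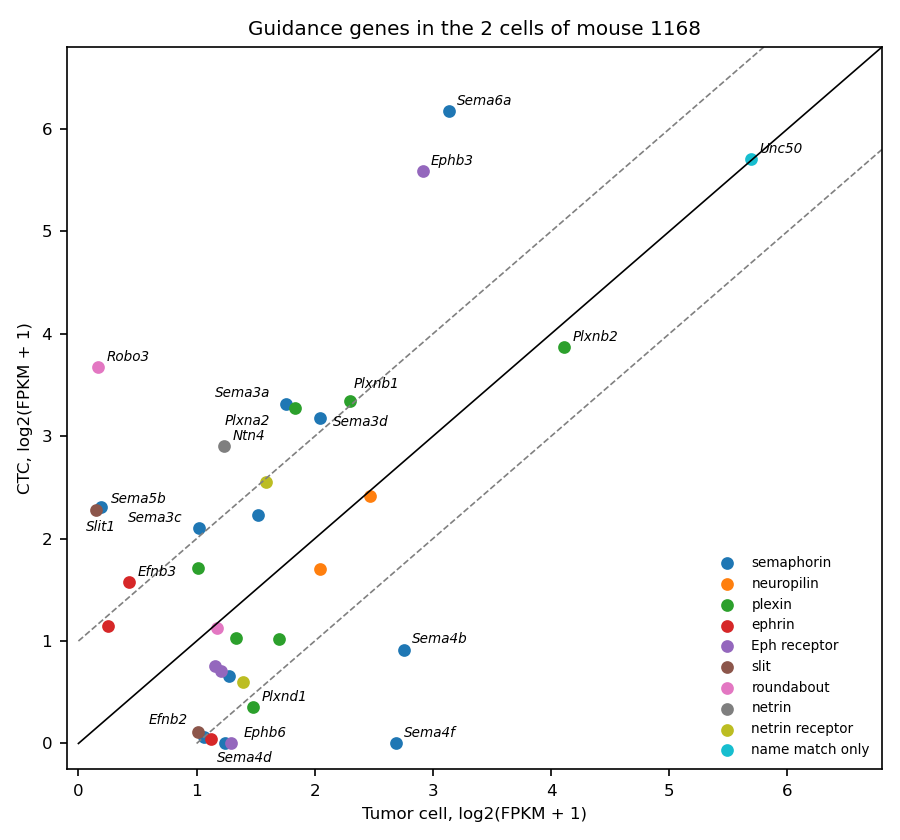
The 35 rows measured in mouse 1168, with the tumor cell on the horizontal and the CTC on the vertical axis, both as log2(FPKM + 1). Points above the upper dashed line are higher in the CTC by at least 1 (12 rows, with Sema6a, Ephb3 and Robo3 farthest out) and points below the lower dashed line are lower by at least 1 (6 rows).

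Marker lists of other cell types differed in mouse 1168, with lower sums in the CTC for some and higher for others. Whether they go with the differences of the guidance genes was not tested. Among the higher sums were the astrocyte list, at 772 against 412 FPKM, and the erythrocyte and platelet list, at 68.3 against 6.26. Of 15 microglia and macrophage genes, 7 reached 1 FPKM in the CTC and 12 did in its tumor cell, with sums of 246 and 2521 FPKM. Of 10 leukocyte genes the numbers were 0 and 3 (sums 1.32 and 253), of 10 endothelial genes 0 and 4 (0.896 and 13.0), and of 11 pericyte and fibroblast genes 1 and 6 (3.05 and 56.0). In that CTC Aif1, Tmem119 and C1qa of the microglia list were listed at 0, as were Pdgfrb and Acta2 of the pericyte list. In the tumor cell the leukocyte gene Cd79a and the endothelial gene Cldn5 were listed at 0. Other microglia genes were well above 1 FPKM in that CTC, with Lyz2 at 174, Tyrobp at 28.4, Ctss at 19.4 and Fcer1g at 18.4. Their tumor cell values were 1202, 346, 672 and 196. Adgre1, at 1.55 and 0.428, and Rgs5 of the pericyte list, at 2.58 and 0.455, had the larger value in the CTC. By the difference of 1, 0 of 13 measured microglia genes rose in the CTC and 11 fell. For the 7 measured pericyte and fibroblast genes these numbers were 1 and 6. Oligodendrocyte progenitor genes summed to 381 and 209, of which Olig1 gave 199 and 138. Of the 10 measured there, 7 were higher and 2 lower in the CTC. The 2 were Gpr17 at 0.113 and 10.3 and Sox10 at 6.54 and 18.3. Neuron genes summed to 746 and 308, mostly from Gap43 at 675 and 262. Of the 6 neuron genes measured there 3 were higher and 3 lower in the CTC, among the latter Nefm at 0.0100 and 21.9. Over the 3 mice the microglia sum ran from 2.18 to 246 in CTCs and from 11.2 to 2521 in tumor cells, and the endothelial sum from 0.896 to 21.3 and from 4.46 to 13.0. Vwf alone gave 19.4 of the 21.3, in the CTC of mouse 1157. The part of other cells in the levels of Sema4b, Sema4d, Sema4f, Plxnd1 and Efnb2, which are higher in the tumor cell, was not tested. RNA from more than 1 cell and a change within 1 cell cannot be told apart in such a library.

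In mouse 1157, 17 of the 74 rows were measured, and 3 were higher and 6 lower in the CTC, 17.6% and 35.3%. Over all 5961 rows measured there, 29% were higher and 37.1% lower. The 3 higher were Sema6a, Sema4d and Sema5b, and each lost that call after rescaling to the named-gene total. Of the 66 rows then measured, 0 were higher and 60, or 90.9%, were lower, beside 7.65% and 81.5% of all 19227 rows. Among the 6 lower, Ntn1, the founding netrin, had 0.990 FPKM (CTC) and 11.0 FPKM (tumor cell). Mouse 1168 had 0.341 and 0.122, and mouse PDGF1 0.0303 and 0.0318. Plxnc1, the receptor of Sema7a, had 0.725 (CTC) and 9.24 (tumor cell) here, 2.28 and 1.02 for mouse 1168, and 0.521 and 0.355 for mouse PDGF1. Epha2, a receptor of A ephrins studied in glioma, was at 0.749 and 6.16 in mouse 1157 and at most 0.191 in the other 4 cells. For Ntn1 and Epha2 a single tumor cell was high and the rest were under 1 FPKM. Plxnc1 was highest in that same tumor cell but also reached 1 FPKM in both cells of mouse 1168. Epha10, Efna4 and Unc5a completed the 6, at 3.06, 2.48 and 3.35 in that tumor cell and under 1 in the CTC. The pericyte and fibroblast list summed to 76.4 FPKM in the tumor cell of mouse 1157 and 2.14 in its CTC, nearly all from Col1a1 at 74.3. Of its 11 genes Col1a1 was the only 1 measured there, so the sum speaks for that gene and not for the list. The part of other cells in the values of mouse 1157 was not tested.

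In mouse PDGF1, 10 of the 74 rows were measured, with 1 higher and 6 lower in the CTC, 10% and 60%. Over all 4042 rows measured there, 23.7% were higher and 59.9% lower, so the share that was lower lay at that of all genes. The gene that was higher was Sema6a. Sema3f, a ligand of neuropilin 2, was listed at 0 for the CTC and at 3.0 FPKM for the tumor cell, and Nrp2 was at 0.172 and 1.64. Epha5 and Epha10 were at 0.134 and 1.87 and at 0.0301 and 1.53. Each of these tumor cell values lay under the receptor percentile of 7.14.

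Few guidance genes were measured in more than 1 mouse. Of the 47 rows measured in any mouse, 33 were measured in 1, 13 in 2 and 1 in all 3. Sema6a was higher in all 3 mice and Sema5b in 2, Epha10 was lower in 2, and Sema4d and Sema3a were higher in 1 mouse and lower in another. In the remaining 9 rows measured in 2 mice, no more than 1 mouse reached a difference of 1. How many of all rows were measured in 1 or 2 mice, or differed in 2, was not counted. These numbers are therefore not read as a trait of guidance genes. In the whole table, too, mouse 1168 had the most measured rows, 12396 against 5961 (mouse 1157) and 4042 (mouse PDGF1).

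Ligands and receptors were then read within each cell, over 9 systems paired by family or gene. A system listed here does not mean that each of its ligands binds each of its receptors. A system was counted when at least 1 ligand and 1 receptor were at 1 FPKM or more in the same cell. Mouse 1168 had 5 of 9 systems in its CTC and 7 in its tumor cell, mouse 1157 had 0 and 3, and mouse PDGF1 had 0 and 1. When both sides also had to exceed the receptor percentile, the numbers were 5 and 4, 0 and 2, and 0 and 0. The CTC of mouse 1168 held Slit1 with Robo1 and Robo3, Ntn4 with Unc5c, Sema3a, Sema3c and Sema3d with Nrp1, Nrp2, Plxna1 and Plxna2, Sema6a and Sema6d with Plxna2, and Efnb3 with Ephb3. Its tumor cell held Sema4d with Plxnb1 and Sema3e with Plxnd1 in addition, with Slit2 in place of Slit1 and Efnb2 in place of Efnb3. The tumor cell of mouse 1157 held Ntn1 with Unc5a, Efna2 and Efna4 with Epha2 and Epha10, and Slit2 with Robo2. Sema7a stayed under 1 FPKM in every cell, so its pair with Plxnc1 was not seen.

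Genes that act downstream of guidance receptors did not move together. Of 57 such genes found in the table, 51 were measured in mouse 1168, and 8 were higher and 9 lower in the CTC, with a median of 0.08. In mouse 1157 the numbers were 2 higher and 8 lower of 23, and in mouse PDGF1 2 higher and 3 lower of 7. Over all rows 22.7% were higher and 24.9% lower (mouse 1168), 29% and 37.1% (mouse 1157), and 23.7% and 59.9% (mouse PDGF1). By limma, 0 of 19 that entered the fit passed. Srgap2, a partner of roundabout receptors, had 51.8 FPKM (CTC) and 10.7 FPKM (tumor cell) in mouse 1168, and Srgap3 was at 5.84 and 1.39. Limk2, a kinase that acts on cofilin, was at 47.1 and 8.58, and the Src-type kinase Fyn at 21.3 and 4.92. Dpysl5, a collapsin response mediator, was at 6.06 and 0.363, and Vav3, an exchange factor downstream of Eph receptors, was at 15.2 and 3.06. Mical1, an oxidase that disassembles actin below plexins, went the other way at 4.76 and 33.5, as did Crmp1 at 0.883 and 6.15, Arhgef12, an exchange factor bound by B plexins, at 2.28 and 6.46, and Met, which B plexins can engage, at 0.0666 and 8.64. Rasa1, which switches off Ras, at 6.94 and 11.8, and the kinase Rock2, at 3.14 and 5.43, differed by less than 1.

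Of 35 other guidance ligands, receptors and co-factors found, 23 were measured in mouse 1168, with 6 higher and 6 lower in the CTC and a median of 0.09, beside 22.7% and 24.9% of all rows. By limma, 0 of 12 passed. The adhesion molecule Cntn1 had 73.3 FPKM (CTC) and 5.39 FPKM (tumor cell). Lrrc4c, the receptor of netrin G1, and its relative Lrrc4 were at 17.5 and 1.24 and at 11.0 and 0.265. Lingo1, a co-receptor of myelin inhibitors, was at 11.0 and 0.245, Dscam, which can bind netrin 1, at 5.87 and 0.122, and Ryk, a Wnt receptor in axon guidance, at 43.5 and 19.4. Lower in the CTC were Gpc1, a glypican that binds slits, at 5.10 against 36.9, Nrcam, a partner of neuropilins, at 2.33 against 14.5, and Sdc1, a syndecan, at 0.911 against 6.67. The proteases Adam17 (3.66 and 7.0) and Adam10 (10.3 and 14.8) and the adhesion molecule Flrt2 (2.90 and 5.63) differed by less than 1. In mouse 1157 4 of 12 were higher and 2 lower, with Lrrc4c at 11.1 and 2.70, and in mouse PDGF1 2 of 6 were higher and 4 lower. The shares over all rows were 29% and 37.1%, and 23.7% and 59.9%, in these mice.

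Sema6a had a larger difference than Ephb3 in mouse 1168, but no promoter was found for it. Among guidance genes with a promoter found and 5 FPKM or more in that CTC, Robo3 and Ephb3 had the largest folds. Their promoters are shown. They are the 250 bases upstream of the RefSeq gene start on GRCm38.p6, written 5′ to 3′ on the strand of the gene, at chr9:37433176-37433425 (minus strand) and chr16:21204545-21204794 (plus strand), with a match of either motif below in capitals.
Robo3: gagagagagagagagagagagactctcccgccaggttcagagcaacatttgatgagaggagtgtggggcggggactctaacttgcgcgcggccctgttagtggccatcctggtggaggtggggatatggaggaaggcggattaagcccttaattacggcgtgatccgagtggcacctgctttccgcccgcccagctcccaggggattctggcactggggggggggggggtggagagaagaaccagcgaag
Ephb3: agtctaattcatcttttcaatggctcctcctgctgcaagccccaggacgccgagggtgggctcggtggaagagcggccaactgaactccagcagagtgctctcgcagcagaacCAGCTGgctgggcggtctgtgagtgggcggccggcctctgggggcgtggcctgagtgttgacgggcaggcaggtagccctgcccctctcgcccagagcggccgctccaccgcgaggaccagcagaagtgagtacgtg
The motifs searched on both strands were CAGCTG, an E-box form, and AACAAT, a core bound by Sox factors, chosen in view of the progenitor genes of this cell. Robo3 held neither and Ephb3 held CAGCTG at 1 place. Promoters were found for 9 of the 12 members higher in the CTC of mouse 1168, of which 1 held CAGCTG and 0 held AACAAT, where 13% and 9.42% of 32851 promoters did. A match describes letters only, and no match says only that they are not in this window.

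The 5 rows that matched by name only are not guidance genes. Unc50, a protein of the Golgi and of receptor trafficking, had 51.2 FPKM (CTC) and 50.7 FPKM (tumor cell) in mouse 1168 and at most 0.725 elsewhere. It made 34.3% of the summed FPKM of the 74 rows in that tumor cell. Unc5cl, a death-domain protein, was at most 0.373. The antisense genes of Plxna4 were low, Plxna4os1 reaching 2.04 and 1.07 in the tumor cells of mice PDGF1 and 1157, and Plxna4os3 listed at 0 in all 6 cells.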

How the data were processed

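RNA was measured in 6 samples, 3 labelled as single-cell CTC and 3 labelled as tumor cell. The deposited values are FPKM, per the name of the authors' table, made by STAR 2.4.2a and Cufflinks 2.2.1 on GRCm38, per the submitters' processing notes. The annotation and the treatment of reads that match several genes are not given in the sources used here. Rows with a date in place of a name (27) or a repeated name (211) were left out, which kept 44804 of 45038. Coordinates and gene classes came from GENCODE mouse release M21 on GRCm38, which held all 74 members, and promoters from RefSeq on GRCm38.p6, with a match for 61 members. Exons of 19 members overlap those of another gene, and reads there may be shared.

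Differences were tested by limma 3.58.1 (R 4.3.3) with its trend option, on log2(FPKM + 1) of rows that reached 1 FPKM in 3 or more of 6 cells, two-sided, with Benjamini-Hochberg adjustment over all rows and a threshold of 0.05. It was tested on simulated data, where it recovered the changes at a small spread and few of them at a spread near that of these cells. A fixed pseudocount understates the change of low genes. Numbers of detected genes were compared by exact permutation. Within a mouse there is no test. The receptor percentile was taken over 1426 olfactory and vomeronasal receptor rows. Other steps used Python 3.11.15 (numpy 2.4.6, pandas 2.3.3) with scipy 1.17.1 for tests and matplotlib 3.10.9 for plots.

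Cells of the same mouse are paired by the labels. After removal of group means their correlation across genes was 0.178 (mouse 1157), 0.689 (mouse 1168) and 0.428 (mouse PDGF1). One pair from different mice, the PDGF1 CTC and the 1157 tumor cell, had 0.422, so the pairing rests on the labels. The members, lists and tests were chosen with earlier results of these data known. Members at 5 FPKM or more in a cell or in the fit were named, the 5 of smallest p with a log2 difference. So were up to 6 genes per direction of the other guidance lists in mouse 1168, and some markers of the cell type lists. The markers named are not in each case those of highest level. Alternatives were other pseudocounts, filters, scalings, measures of detection, the mouse as a block and leaving out single cells or both cells of a mouse. Of the lists fixed, Mical3, Tag1 and Tubb3 were not matched to a usable row. Markers of astrocytes summed to 772 FPKM (CTC) and 412 FPKM (tumor cell) in mouse 1168, of which Aldoc gave 613 and 30.9 and S100b 108 and 364. The erythrocyte and platelet list summed to 68.3 and 6.26, nearly all of it Itga2b at 68.0 and 6.09.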

Additional observations from a re-analysis of the deposited data

How the results depend on the processing

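No guidance row passed the threshold under any of the 17 alternatives of the limma fit, single cells left out and the replicate block among them (0 rows in each); with the block the detection difference stayed at -7.67 and no call of a guidance gene changed. Leaving out single cells, the log2 difference ran from -0.83 to 0.33 for Plxna1 and from -1.21 to 0.31 for Plxnb2, so their sign rests on single cells; with a cell of mouse 1168 left out Plxnb2, Nrp2 and Plxnc1 were not tested. For Sema6a it ran from 1.34 to 3.85, and the detection difference from -14.2 to -1.5. With both cells of a mouse left out, the difference of Sema6a ran from 2.43 to 2.90. The detection difference turned to 0.667 at 5 FPKM and to 7.67 above the receptor percentile.

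Rescaled to the named-gene total, the numbers higher and lower in the CTC became 0 and 60 (mouse 1157), 5 and 2 (mouse 1168), and 13 and 19 (mouse PDGF1), of 66, 20 and 43 rows measured. Over all rows the shares were 7.65% and 81.5%, 13.5% and 25.3%, and 34.4% and 41.5%. Sema6a in mouse 1157 turned to -0.27. Rescaling multiplies sparse libraries, so more rows reach 1 FPKM there. With a pseudocount of 0.1, 12 were lower in mouse 1157 and 11 in mouse 1168, and 2 were higher in mouse PDGF1, where 51.5%, 29.9% and 26.4% of all rows were. With 5 FPKM required, 1 was higher and 3 lower in mouse 1157, 2 lower in mouse 1168 and 0 lower in mouse PDGF1, where above the receptor percentile 0 were lower too. These rest on 4, 12 and 1 rows, beside 60.7% higher and 34.7% lower, 19.6% lower, and 61.6% lower of all rows (40.6% above the receptor percentile). The within-mouse counts thus depend on scale and floor. Read depth is unknown, which limits every value near the receptor percentile. Alternatives on the 69 guidance genes alone and the within-mouse values of single genes were added after seeing the data. So were the differences of single genes with both cells of a mouse left out.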
